A study of Mus musculus with 8 samples.

Results

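The genes of MHC class I presentation and of the immunoproteasome were followed in mouse macrophages exposed to CYR61. The 10 genes were taken by name from the 32249 genes listed in the count tables. They were the heavy chain genes H2-K1, H2-D1 and H2-T23, the light chain gene B2m, the peptide transport and loading genes Tap1, Tap2 and Tapbp, and the immunoproteasome subunit genes Psmb8, Psmb9 and Psmb10. CYR61, the product of Ccn1, is a protein of the extracellular matrix and a ligand of integrins. Marrow from the hind limbs of 10-week-old C57Bl/6J mice, male by their label, was grown for 3 days with M-CSF, the growth factor that drives macrophage development. The 4 CYR61 libraries then received 4 µg/mL of the protein for 24 h, and the 4 control libraries received none. Single cells were captured in HIVE arrays, and the tables hold UMI counts, that is, counts of tagged RNA molecules, per gene and cell barcode. The labels do not say whether the libraries came from separate animals or cultures, or whether cells were pooled, so p-values measure the spread between these libraries.

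Class I molecules show peptides from proteins made inside the cell to CD8 T cells and are read by natural killer cells, and nearly every nucleated cell makes them. Peptides are cut by the proteasome, carried into the endoplasmic reticulum by the TAP transporter, and loaded onto a heavy chain paired with beta-2 microglobulin. In macrophages and other cells, interferons are known to raise many of these genes and to exchange the catalytic subunits of the standard proteasome for those of the immunoproteasome.

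All 10 genes had a higher mean in CYR61 libraries than in control libraries, by 1.40-fold for Tap2 to 2.73-fold for Tap1. B2m, Tap1 and Tapbp rose by the edgeR quasi-likelihood test at an adjusted p under 0.05 over all genes tested, and none fell. These 3 of 10 stand beside 1.12% of 10422 genes that rose and 0.0384% that fell. The median log2 fold change was 0.95 over the 10 genes and -0.02 over all genes tested. All CYR61 libraries lay above all control libraries for B2m, Tap1, Tapbp and Psmb8, or 4 of 10, beside 2.87% of all genes tested. DESeq2 called 5 of the 10, adding H2-K1 and Psmb8, beside 1.56% of its genes that rose, and edgeR without a filter on low counts called 6, beside 0.679%. With CYR61 library 4, control library 2 or control library 3 left out, edgeR called 0 of the 10, where 7 to 8 had an unadjusted p under 0.05, beside 0.795%, 0.834% and 0.824% of genes that rose. It called 1 without control library 1 or 4, beside 0.891% and 0.793%, 2 without CYR61 library 3, beside 0.994%, 3 without CYR61 library 1, beside 1.06%, and 4 without CYR61 library 2, beside 1.19%.

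Many barcodes were listed in several tables, so a rule on cells came before any comparison. Barcodes needed 300 or more genes and no more than 20% mitochondrial UMIs, which left 12848 of 40000. Of these, 6443 (50.1%) were also listed in another table with the same date stamp and 91 (0.708%) in a table with the other stamp. Each kept barcode was therefore counted only in its home library, the table with the most of its UMIs among those of the same date. This left 1971, 3604, 499 and 1065 cells in CYR61 libraries 1 to 4, and 1058, 315, 294 and 390 in control libraries 1 to 4. The home cells held 1149043 to 13933610 UMIs per CYR61 library and 842528 to 3436577 per control library. Levels below are CPM, a gene's UMIs summed over the home cells of a library and scaled to a common library total, and log2 fold changes are edgeR estimates of CYR61 over control from those sums. In such sums, more cells that make a gene and more RNA per cell cannot be told apart.

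The libraries also split against their label. Xist, the RNA that coats the inactive X chromosome in female cells, stood at 1206 and 1152 CPM in CYR61 libraries 1 and 2 and at 1249 and 1213 CPM in control libraries 2 and 3. It was at most 1.16 CPM in the other libraries, where Y-linked genes summed to 323 to 399 CPM. They are called Xist libraries and Y libraries here, with 2 of each kind in each group. Libraries 1 and 2 of both groups carried the earlier date stamp and libraries 3 and 4 the later one, so the kind and the date of a CYR61 library cannot be told apart. Of 6 macrophage markers, Csf1r, Adgre1 and Cd68 overlapped between the groups. They averaged 444, 576 and 1023 CPM with CYR61, against 368, 479 and 860 CPM in control. Fcgr1, C1qa and Mertk had every CYR61 library above every control, beside 2.87% of all genes tested. Mertk did not pass (log2 fold change 0.43, edgeR adjusted p = 0.683), and Fcgr1 and C1qa are given below. Dendritic, T and natural killer, erythroid, mast and stromal cell markers each summed to at most 7.83 CPM in any library. Monocyte markers summed to 31.0 to 59.3 CPM with CYR61 and 17.9 to 129 CPM in control, and none of 4 passed. Megakaryocyte markers, nearly all of it Pf4, summed to 586, 633, 1359 and 1179 CPM in CYR61 libraries and 756, 709, 370 and 874 CPM in control libraries, and neither of 2 tested passed. Both Y libraries with CYR61 stood highest in that sum, as they did for most of the 10 genes, and this order came from Pf4. The other markers of the list, Ppbp, Itga2b and Gp9, stood at 24.9 CPM or less. Ppbp was highest in control library 4, at 24.9 CPM, and in CYR61 library 2, at 22.3 CPM. The part of Pf4 in the results was not tested.

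The classical heavy chains H2-K1 and H2-D1 bind the peptide and form the part of the molecule that T cell receptors read. H2-K1 lies on chromosome 17 from 33996017 to 34000347 on the minus strand, and H2-D1 on the same chromosome from 35262730 to 35267499 on the plus strand (mm10). H2-K1 had 485, 389, 966 and 968 CPM in CYR61 libraries 1 to 4, against 408, 256, 233 and 415 CPM in control libraries 1 to 4. The 2 Y libraries with CYR61 were highest, and CYR61 library 2 lay below 2 controls, so the groups overlapped. The means were 702 ± 309 CPM with CYR61 and 328 ± 97.1 CPM in control (SD, n = 4 each), and the change did not pass (log2 fold change 1.12 ± 0.32 SE, adjusted p = 0.233 by edgeR).

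H2-D1 had 961, 789, 1280 and 1482 CPM in CYR61 libraries and 986, 599, 605 and 1002 CPM in control libraries. Both Y controls lay above both Xist libraries with CYR61. Its means were 1128 ± 312 CPM with CYR61 and 798 ± 226 CPM in control, and H2-D1 did not pass (log2 fold change 0.52 ± 0.25 SE, adjusted p = 0.823 by edgeR, n = 4). How reads shared between class I paralogs were counted is not given in the sources used here, so values of single H2 genes are uncertain between family members.

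H2-T23 encodes Qa-1b, a nonclassical heavy chain that shows leader peptides of other class I proteins to the CD94/NKG2A receptor of natural killer cells. It lies on chromosome 17 from 36029773 to 36032855 on the minus strand and overlaps A930015D03Rik on the other strand. H2-T23 had 57.5, 41.5, 85.3 and 121 CPM in CYR61 libraries and 49.5, 34.0, 28.5 and 38.9 CPM in control libraries. Only control library 1 lay above a CYR61 library, the second. The means were 76.2 ± 34.7 CPM with CYR61 and 37.7 ± 8.92 CPM in control, and H2-T23 did not pass (log2 fold change 1.01 ± 0.32 SE, adjusted p = 0.368 by edgeR, n = 4).

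The balance between the classical heavy chains did not overlap between the groups. The UMI ratio of H2-D1 to H2-K1 within a library was 1.98, 2.03, 1.33 and 1.53 with CYR61, against 2.42, 2.35, 2.60 and 2.42 in control. Every CYR61 library lay below every control library, with means of 1.72 ± 0.344 with CYR61 and 2.44 ± 0.110 in control (SD, n = 4). No test was made of these ratios, and no share of other gene pairs was taken. This ratio and that of Tap1 to Tap2 were not among the ratios planned. Of all the ratios given here, this one and Psmb9 to Psmb6 did not overlap between the groups, and the others did. Within the CYR61 group, both Y libraries lay below both Xist libraries. A shift between paralogs in how shared reads were counted was not tested.

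B2m encodes beta-2 microglobulin, the light chain that pairs with these heavy chains. It lies on chromosome 2 from 122147686 to 122153083 on the plus strand and overlaps Patl2 on the other strand. B2m had 2831, 2716, 4754 and 4041 CPM in CYR61 libraries and 1794, 1750, 1891 and 1994 CPM in control libraries. The lowest CYR61 library lay above the highest control, and the controls lay close together. B2m rose to 3585 ± 983 CPM with CYR61, against 1857 ± 109 CPM in control (log2 fold change 0.98 ± 0.20 SE, adjusted p = 0.0385 by edgeR, n = 4). Its ratio to the sum of H2-K1 and H2-D1 was 1.96, 2.31, 2.12 and 1.65 with CYR61, against 1.29, 2.05, 2.26 and 1.41 in control, and the groups overlapped.

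**Figure D1:**
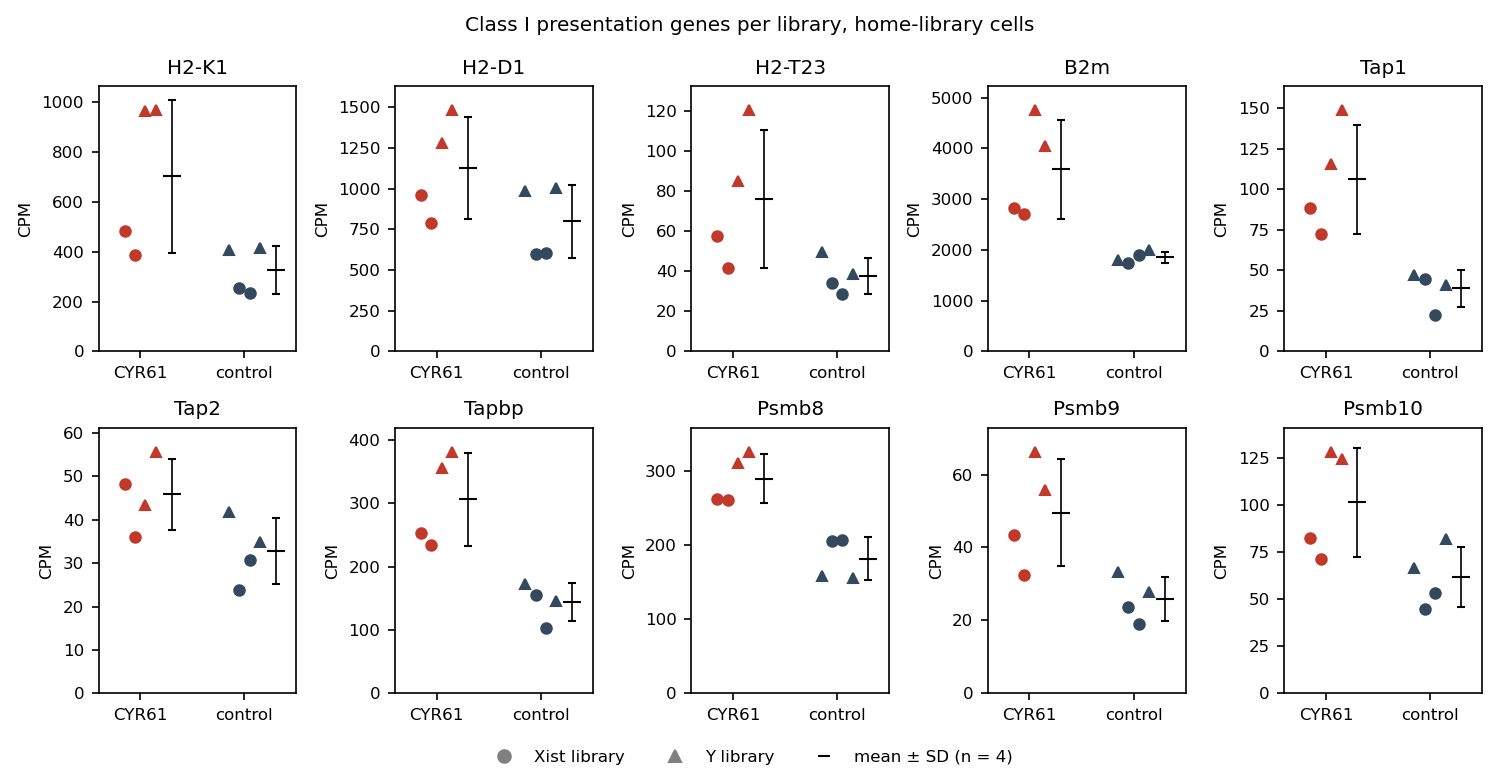
CPM of each of the 10 genes in the home cells of each library, with CYR61 at the left and control at the right of each panel, circles for Xist libraries, triangles for Y libraries, and bars for mean ± SD (n = 4). CYR61 and control libraries did not overlap for B2m, Tap1, Tapbp and Psmb8, and H2-D1 lay at 789 to 1482 CPM with CYR61 and 599 to 1002 CPM in control.

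The promoters of the heavy and light chain genes hold letters like those of known interferon and NF-kB elements, and they are printed to show the letters that these genes share. Sequences are from RefSeq on GRCm38.p6, where 9 of the 10 genes had a promoter entry and Tap2 had none. Each runs 5′ to 3′ on the strand of its gene, and capitals mark matches to an interferon-stimulated response element and to a kappa B element, searched on both strands. The ISRE-like letters were GAA or GAAA, any 2 bases and GAAA, and the kappa B letters were GGG, any 2 bases, TT, any base and CC. The windows are chr17:34000348-34000497 (minus strand) for H2-K1, chr17:35262884-35263033 (plus strand) for H2-D1, chr2:122147537-122147686 (plus strand) for B2m and chr17:36032702-36032851 (minus strand) for H2-T23. The letters were chosen after these sequences were seen, and a match is a description of the sequence.
H2-K1: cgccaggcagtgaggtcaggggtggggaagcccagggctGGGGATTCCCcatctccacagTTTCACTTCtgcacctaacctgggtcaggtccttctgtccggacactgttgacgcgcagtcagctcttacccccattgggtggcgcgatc
H2-D1: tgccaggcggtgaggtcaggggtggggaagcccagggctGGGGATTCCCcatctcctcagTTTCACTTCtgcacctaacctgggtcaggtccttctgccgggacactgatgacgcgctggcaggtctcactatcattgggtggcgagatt
B2m: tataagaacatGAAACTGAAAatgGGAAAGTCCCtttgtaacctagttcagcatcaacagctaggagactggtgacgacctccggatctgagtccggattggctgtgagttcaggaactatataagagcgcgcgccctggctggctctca
H2-T23: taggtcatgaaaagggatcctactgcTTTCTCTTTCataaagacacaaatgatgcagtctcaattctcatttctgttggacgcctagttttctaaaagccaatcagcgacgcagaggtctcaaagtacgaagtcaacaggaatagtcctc

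The H2-K1 window covers bases 150 to 1 before the RefSeq start and the H2-D1 window bases 210 to 61, and the windows were identical at 135 of 150 positions (90%). The H2-D1 and H2-T23 windows lie inside the longer gene models of the annotation used for positions. All motifs were searched in the 250 bases before the RefSeq start. H2-K1, H2-D1 and B2m held both the ISRE-like and the kappa B letters there, and H2-T23 held the ISRE-like letters without the kappa B letters. In the same 250 bases of all 32807 RefSeq promoters, 8.81% held the ISRE-like letters, 4.11% the kappa B letters and 0.427% both. TGACG, the letters of the X2 box of class I and class II promoters, was in 5 of the 9 promoters and in 17.8% of all, and CCAAT was in 7 of the 9 and in 33.8% of all. H2-K1, H2-D1 and B2m were among the 15 promoters (0.0457%) with all 4 motifs. The ISRE-like and kappa B letters were absent from those bases of Tap1, Tapbp, Psmb8, Psmb9 and Psmb10.

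TAP is a pair of proteins encoded by Tap1 and Tap2, which together pump peptides into the endoplasmic reticulum. Tap1 had 88.2, 72.4, 116 and 149 CPM in CYR61 libraries and 47.4, 45.0, 22.6 and 40.9 CPM in control libraries. Every CYR61 library lay above every control. Tap1 rose to 106 ± 33.6 CPM with CYR61, against 39.0 ± 11.3 CPM in control, the largest fold among the 10 genes (log2 fold change 1.45 ± 0.28 SE, adjusted p = 0.0197 by edgeR, n = 4).

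Tap2 had 48.3, 36.0, 43.5 and 55.6 CPM in CYR61 libraries and 41.9, 23.8, 30.9 and 34.9 CPM in control libraries. Control library 1 lay above CYR61 library 2, and the groups overlapped. Tap2 had the smallest change of the 10, with 45.9 ± 8.23 CPM with CYR61 and 32.9 ± 7.58 CPM in control, and did not pass (log2 fold change 0.49 ± 0.25 SE, adjusted p = 0.865 by edgeR, n = 4). The UMI ratio of Tap1 to Tap2 averaged 2.29 ± 0.440 with CYR61 and 1.23 ± 0.484 in control (n = 4), with control library 2 inside the CYR61 range at 1.89.

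Tapbp encodes tapasin, which bridges the heavy chain to TAP and helps it take up peptide. It lies on chromosome 17 from 33915899 to 33929292 on the plus strand and overlaps Zbtb22 and Gm19412. Tapbp had 252, 234, 356 and 380 CPM in CYR61 libraries and 173, 155, 103 and 146 CPM in control libraries. Every CYR61 library lay above every control. Tapbp rose to 306 ± 73.1 CPM with CYR61, against 144 ± 29.5 CPM in control (log2 fold change 1.11 ± 0.21 SE, adjusted p = 0.0197 by edgeR, n = 4).

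Psmb9, Tap1, Psmb8 and Tap2 lie side by side in the class II region of chromosome 17, within 34335 bases from 34181987 to 34216321. Tap1 (34187553 to 34197225), Psmb8 (34197721 to 34201454) and Tap2 (34203527 to 34216321) are on the plus strand and Psmb9 (34181987 to 34187764) on the minus strand. The RefSeq starts of Psmb9 and Tap1 face away from each other at a distance of 226 bases, and the annotated genes overlap. Gm20496 lies opposite Psmb8 and Tap2, and Gm15821 opposite Tap2. The use of strand in counting is not given in the sources used here, so reads in these overlaps cannot be told apart. Of the 4 neighbours, Tap1 rose and the other 3 did not pass.

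The immunoproteasome subunits replace the catalytic subunits of the standard proteasome, Psmb8 in place of Psmb5, Psmb9 in place of Psmb6 and Psmb10 in place of Psmb7. Psmb8 had 262, 261, 311 and 326 CPM in CYR61 libraries and 159, 205, 208 and 156 CPM in control libraries. Every CYR61 library lay above every control, and both Xist controls lay above both Y controls. Psmb8 averaged 290 ± 33.4 CPM with CYR61 and 182 ± 28.6 CPM in control and did not pass (log2 fold change 0.71 ± 0.17 SE, adjusted p = 0.104 by edgeR, n = 4).

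Psmb9 had 43.5, 32.4, 66.1 and 55.9 CPM in CYR61 libraries and 33.2, 23.8, 19.0 and 27.9 CPM in control libraries. Control library 1 lay just above CYR61 library 2. Psmb9 averaged 49.5 ± 14.7 CPM with CYR61 and 26.0 ± 6.03 CPM in control and did not pass (log2 fold change 0.92 ± 0.28 SE, adjusted p = 0.333 by edgeR, n = 4). Its lowest count was 16 UMIs, in a control library.

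Psmb10, on chromosome 8 from 105935735 to 105938444 on the minus strand, overlaps Gm16156 on the other strand. Psmb10 had 82.3, 71.2, 128 and 124 CPM in CYR61 libraries and 66.6, 45.0, 53.4 and 81.8 CPM in control libraries. Control library 4 lay above CYR61 library 2 and close to CYR61 library 1. Psmb10 averaged 101 ± 28.8 CPM with CYR61 and 61.7 ± 16.1 CPM in control and did not pass (log2 fold change 0.73 ± 0.26 SE, adjusted p = 0.541 by edgeR, n = 4).

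The standard partners gave no call. Psmb6 averaged 174 ± 34.0 CPM with CYR61 and 208 ± 25.1 CPM in control, and Psmb7 averaged 103 ± 9.47 CPM with CYR61 and 113 ± 22.8 CPM in control (n = 4). Psmb5 averaged 43.3 ± 5.21 CPM with CYR61 and 30.1 ± 18.3 CPM in control (n = 4). The log2 fold changes were -0.23 for Psmb6, -0.10 for Psmb7 and 0.52 for Psmb5 (edgeR adjusted p = 0.988, 1.0 and 0.961).

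The UMI ratio of Psmb9 to Psmb6 was 0.293, 0.225, 0.349 and 0.260 with CYR61, against 0.149, 0.126, 0.103 and 0.118 in control. Every CYR61 library lay above every control, with means of 0.281 ± 0.0526 with CYR61 and 0.124 ± 0.0193 in control (n = 4). Psmb10 to Psmb7 was 0.802, 0.697, 1.11 and 1.35 with CYR61 and 0.692, 0.308, 0.484 and 0.820 in control, and the groups overlapped. Psmb8 to Psmb5 was 6.16 to 7.43 with CYR61 and 3.59 to 17.5 in control, where a control library held as few as 10 Psmb5 UMIs. These ratios are compared between libraries and were not tested.

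**Figure D2:**
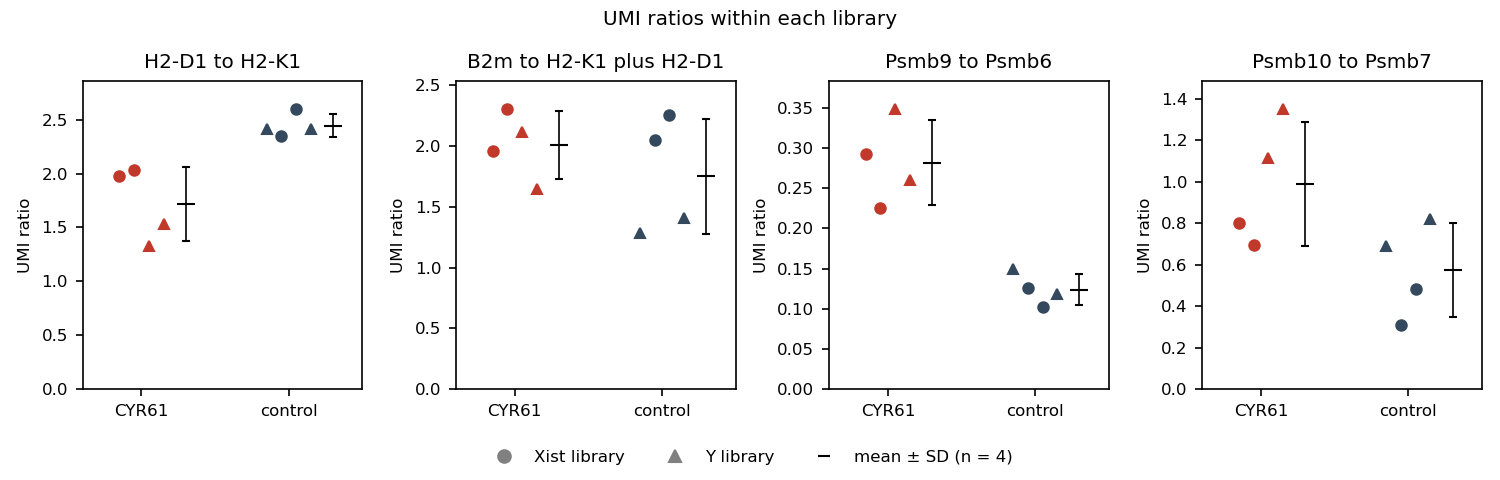
UMI ratios between partner genes in the home cells of each library, with CYR61 at the left and control at the right, circles for Xist libraries, triangles for Y libraries, and bars for mean ± SD (n = 4). H2-D1 to H2-K1 lay at 1.33 to 2.03 with CYR61 and 2.35 to 2.60 in control, and Psmb9 to Psmb6 at 0.225 to 0.349 with CYR61 and 0.103 to 0.149 in control. B2m to the sum of H2-K1 and H2-D1 and Psmb10 to Psmb7 overlapped between the groups.

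Within the groups, most of the 10 genes were ordered by library kind, which for CYR61 is also the order of the dates. Both Y libraries with CYR61 lay above both Xist libraries with CYR61 for 9 of 10 genes, all but Tap2, beside 33.6% of all genes tested. In control, both Y libraries lay above both Xist libraries for 6 of 10, namely H2-K1, H2-D1, H2-T23, Tap2, Psmb9 and Psmb10, beside 22% of all genes. The order was the opposite for Psmb8, beside 24.1% of all genes. Within each kind, the pair of CYR61 libraries lay above the pair of controls for 10 of 10 genes in both kinds, beside 5.64% of all genes. At both dates the same held for 5 of 10, namely B2m, Tap1, Tapbp, Psmb8 and Psmb10, beside 4.38% of all genes.

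With the library kind, Xist or Y, as a block in edgeR, 9 of the 10 genes passed, all higher, beside 1.91% of genes tested that rose. H2-K1 then had a log2 fold change of 1.07 (SE 0.13, edgeR adjusted p = 8.93e-05), and H2-D1 one of 0.54 (SE 0.12, edgeR adjusted p = 0.0214). The adjusted p was 0.0169 for H2-T23, 0.0149 for Psmb8, 0.0322 for Psmb9 and 0.0251 for Psmb10, and 0.00115, 0.000367 and 0.00015 for B2m, Tap1 and Tapbp. Tap2 did not pass with the block (log2 fold change 0.53 ± 0.22 SE, adjusted p = 0.354 by edgeR). The estimates moved little, and the standard errors were smaller with the block for each of the 10 genes.

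**Figure D3:**
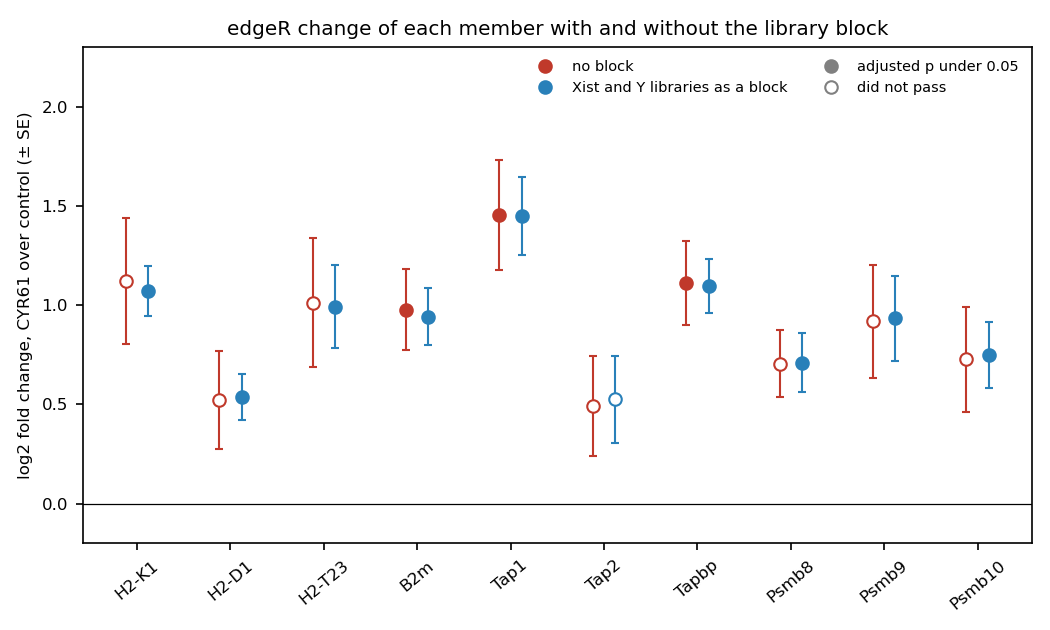
edgeR log2 fold change of CYR61 over control (± SE) for each of the 10 genes, without a block in red and with the library kind, Xist or Y, as a block in blue, filled where the adjusted p was under 0.05. B2m, Tap1 and Tapbp passed in both fits, Tap2 passed in neither, and the other 6 passed with the block alone.

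Within each kind, the mean of the 2 CYR61 libraries over the mean of the 2 controls was 2.38 in Xist libraries and 3.00 in Y libraries for Tap1. For B2m it was 1.52 in Xist libraries and 2.32 in Y libraries, and for Psmb8 1.26 in Xist libraries and 2.03 in Y libraries. H2-D1 had 1.45 in Xist libraries and 1.39 in Y libraries, and Tap2 had 1.54 in Xist libraries and 1.29 in Y libraries. All 10 ratios were above 1 in each kind, and whether they differed between the kinds was not tested. In Xist libraries alone H2-K1 and Tapbp passed, beside 1.09% of genes that rose, and in Y libraries alone H2-K1, H2-T23, B2m, Tap1, Tapbp and Psmb8 passed, beside 1.64%. These 2 fits were added after the data were seen. At the earlier date alone none of the 10 passed in edgeR and 4 had an unadjusted p under 0.05, beside 0.459% of genes that rose. At the later date H2-K1, Tap1 and Tapbp passed, beside 0.887%.

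Without the home-library rule, none of the 10 genes passed and 0 of all 11148 genes tested passed in edgeR. There were 279 genes at an unadjusted p under 0.05, among them 6 of the 10. The log2 fold changes of the 10 genes were then 0.33 to 0.97, all positive. Over all kept barcodes B2m had 2798, 2720, 4293 and 4042 CPM in CYR61 libraries and 1806, 2693, 2573 and 2706 CPM in control libraries. CYR61 library 2 then lay just above control libraries 2 to 4. B2m, Tap1, Tapbp and Psmb8 kept all CYR61 libraries above all controls, or 4 of 10, beside 1.87% of the genes tested. Kept UMIs of barcodes whose home was elsewhere were 17.3%, 11.2%, 22.4% and 0.891% in CYR61 libraries 1 to 4, against 1.29%, 76.1%, 24.2% and 27.4% in control libraries 1 to 4. In the barcodes with fewer than 300 genes, left out of every comparison here, Tapbp was the 1 gene of the 10 with all CYR61 libraries above all controls, beside 2% of 5555 genes.

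Neutrophil granule genes summed to 342, 285, 2777 and 975 CPM in CYR61 libraries and 1151, 1283, 401 and 1173 CPM in control libraries. Cells rich in them were 9.22% of CYR61 library 3, against at most 1.69% of any other library. Without those cells B2m, Tap1 and Tapbp still passed, beside 1.14% of genes that rose, and the median log2 fold change of the 10 genes was 0.98. The B cell gene Ighm fell to 3.23 ± 1.65 CPM with CYR61, against 23.9 ± 11.1 CPM in control (log2 fold change -2.72 ± 0.51 SE, adjusted p = 0.0196 by edgeR, n = 4). The other B cell markers were too low to be tested. Cd79b averaged 1.66 ± 0.748 CPM with CYR61 and 0.879 ± 1.12 CPM in control, and Cd79a and Ms4a1 stood at 0.126 CPM each in CYR61 library 1 and at 0 in all others. Of the macrophage markers, Fcgr1 and C1qa rose (log2 fold changes 2.19 and 1.70, edgeR adjusted p = 8.47e-05 and 0.00355). The whole macrophage list summed to 2641 to 2983 CPM with CYR61 and 1719 to 2218 CPM in control. The part of the B cell and macrophage lists in the results was not tested. The mitochondrial share of UMIs in home cells was 3.78% to 7.86% with CYR61 and 4.78% to 9.12% in control.

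The share of cells with a molecule was compared after each cell was thinned to 1000 UMIs, which kept 4201 of 7139 CYR61 cells and 1017 of 2057 control cells. Since nearly every nucleated cell makes class I, no cell type in the culture gave a background level for these shares. At least 1 B2m UMI was found in 94.1%, 94.3%, 99.0% and 96.3% of cells in CYR61 libraries, against 83.8%, 81.3%, 85.2% and 84.6% in control libraries. The median cell held 3 to 6 B2m UMIs with CYR61 and 1 to 2 in control. Without thinning the shares were 96.5% to 98.6% with CYR61 and 80.1% to 86.2% in control.

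Tapbp was found in 22.1%, 20.3%, 27.8% and 28.1% of thinned cells with CYR61 and in 11.6%, 7.23%, 9.40% and 12.2% in control. Psmb8 was found in 21.0% to 27.3% of thinned cells with CYR61 and in 11.3% to 17.4% in control. For both genes every CYR61 library lay above every control, as for B2m. The same held for Tap1, at 6.91% to 9.79% with CYR61 and 2.68% to 4.22% in control. It also held for Psmb9, at 3.04% to 6.19% with CYR61 and 1.20% to 2.70% in control. The share of all genes with that order was not taken for these shares of cells. H2-K1 was found in 37.6%, 29.3%, 54.6% and 56.0% of thinned cells with CYR61 and in 31.4%, 14.5%, 15.4% and 35.7% in control, and H2-D1 in 51.1% to 74.9% with CYR61 and 41.6% to 61.1% in control. The groups overlapped for both heavy chains, and also for H2-T23, Tap2 and Psmb10. Without thinning the shares were 31.7% to 41.5% with CYR61 and 14.6% to 22.4% in control for Tapbp, and for Psmb8 29.5% to 42.0% with CYR61 and 20.5% to 26.3% in control. The shares were not tested.

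**Figure D4:**
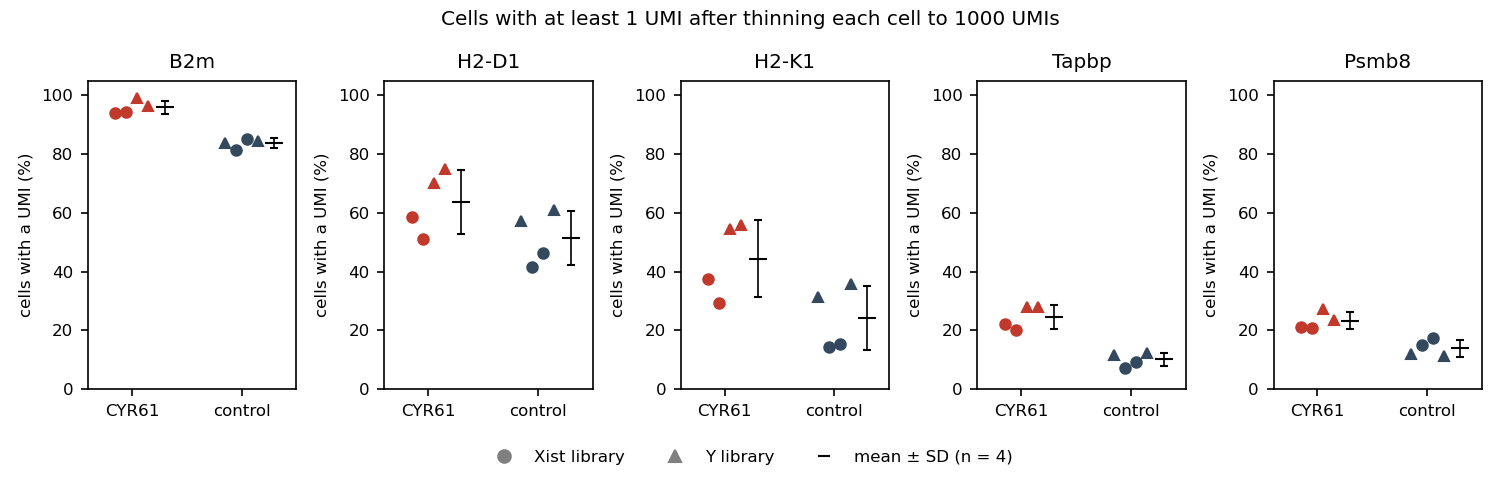
Share of home cells with at least 1 UMI of each gene after thinning to 1000 UMIs per cell, with CYR61 at the left and control at the right, circles for Xist libraries, triangles for Y libraries, and bars for mean ± SD (n = 4). B2m lay at 94.1% to 99.0% with CYR61 and 81.3% to 85.2% in control, and Tapbp at 20.3% to 28.1% with CYR61 and 7.23% to 12.2% in control.

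Within each library, thinned cells were ordered by their summed UMIs of 20 type I interferon response genes, none of them among the 10. They were then split into 3 groups of equal size, with ties in the sum put in random order. B2m in the upper group over the lower group was 1.11, 1.04, 1.02 and 1.15 in CYR61 libraries and 0.871, 1.02, 0.845 and 1.03 in control libraries. In CYR61 library 4, whose ratio was highest, B2m was 4731 CPM in the upper group and 4127 CPM in the lower group. The lower group of each CYR61 library held more B2m, at 2914 to 5625 CPM, than the upper group of any control library, at 1776 to 2096 CPM. The groups did not hold like numbers of interferon UMIs. The lower groups of CYR61 libraries held 0.788, 0.655, 2.38 and 1.98 of them per cell, and their upper groups 5.61, 5.06, 10.2 and 9.67, against 0.981, 1.35, 1.24 and 1.01 in the upper groups and 0 in the lower groups of control libraries. The lower groups of CYR61 libraries 3 and 4 thus held more interferon UMIs per cell than any control upper group. The upper group of control library 1 held under 1 interferon UMI per cell, so it too included cells with 0. The split of control library 1 was thus partly random. Upper groups of control libraries 2 to 4 held 1.01 to 1.35 interferon UMIs per cell, so ties may have placed cells at random there too. The ratios of control libraries set no level for those of CYR61 libraries. Tap1 had ratios of 1.05 to 1.77 with CYR61 and 0.600 to 2.0 in control, where a group held as few as 1 UMI. B2m and Tap1 were the only 2 of the 10 with all 4 CYR61 ratios above 1. Each of the others had 2 or 3 of 4, such as H2-K1 at 0.667 to 1.22 and Tapbp at 0.875 to 1.30. In CYR61 library 3 the ratios rested on 366 against 360 UMIs for B2m and 10 against 6 for Tap1. The share of all genes with such ratios was not taken, so the count is a description. Both measures share the UMIs of the same cells, and no test was made.

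Other genes of the pathway were counted in the same edgeR fit. Of 10 other class I heavy chain genes and relatives tested, 1 rose and 0 fell by edgeR and 3 rose by DESeq2, with a median log2 fold change of 0.90. H2-T24, a nonclassical heavy chain gene, rose to 64.5 ± 25.7 CPM with CYR61, against 16.4 ± 9.81 CPM in control (log2 fold change 2.06 ± 0.40 SE, adjusted p = 0.0228 by edgeR, n = 4). H2-T24 ran against the order of most of the 10 genes, with 91.9 and 78.2 CPM in the Xist libraries with CYR61 and 33.9 and 54.0 CPM in the Y libraries with CYR61. H2-T24 had every CYR61 library above every control, as did H2-T22, H2-Q4, H2-M2 and H2-M3, beside 2.87% of all genes tested. H2-T22, H2-Q4, H2-M2 and H2-M3 did not pass (log2 fold changes 1.28, 1.62, 3.08 and 0.71, edgeR adjusted p = 0.163, 0.254, 0.368 and 0.665). H2-M2 rested on 9 UMIs in control, all in library 2.

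Of 13 genes of peptide loading and trimming tested, none rose or fell by edgeR or by DESeq2, 1 had an unadjusted p under 0.05 in edgeR, and the median log2 fold change was 0.09. The smallest p belonged to Sec61a1, a subunit of the channel that brings proteins into the endoplasmic reticulum, whose CYR61 libraries all lay below the controls. Sec61a1 averaged 108 ± 28.1 CPM with CYR61 and 199 ± 63.2 CPM in control (log2 fold change -0.87 ± 0.26 SE, adjusted p = 0.300 by edgeR, n = 4). The channel subunit Sec61b had a log2 fold change of -0.47 and the peptidases Lnpep and Erap1 0.26 each (edgeR adjusted p from 0.897 to 0.988).

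Of 10 tested standard catalytic subunits, proteasome activators and assembly factors, none rose or fell by edgeR or by DESeq2, 2 had an unadjusted p under 0.05 in edgeR, and the median log2 fold change was 0.22. Psme1 and Psme2, which encode the PA28 activator that opens the proteasome, did not overlap between the groups. Psme1 averaged 198 ± 52.3 CPM with CYR61 and 120 ± 16.3 CPM in control (log2 fold change 0.74 ± 0.22 SE, adjusted p = 0.259 by edgeR, n = 4). Psme2 averaged 74.4 ± 31.3 CPM with CYR61 and 35.1 ± 13.3 CPM in control (log2 fold change 1.07 ± 0.34 SE, adjusted p = 0.368 by edgeR, n = 4). The other activator genes, Psme3 and Psme4, had log2 fold changes of 0.35 and 0.27 (edgeR adjusted p = 0.921 and 0.944).

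Of 12 tested regulators of class I genes, 3 rose and 0 fell, with a median log2 fold change of 0.44. Among them, Stat2 and Irf9 encode factors of type I interferon signalling. Stat2 had a log2 fold change of 2.15 (SE 0.28, edgeR adjusted p = 0.00103) and Irf9 one of 1.03 (SE 0.22, edgeR adjusted p = 0.0409). Nlrc5, the transactivator of class I promoters, had 30.0, 24.3, 73.1 and 46.0 CPM in CYR61 libraries and 12.2, 24.6, 11.9 and 26.9 CPM in control libraries. The groups overlapped, and Nlrc5 did not pass (log2 fold change 1.22 ± 0.41 SE, adjusted p = 0.436 by edgeR, n = 4).

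Among 19 tested genes of the type I interferon response, 19 rose, with log2 fold changes of 1.62 to 7.16 and a median of 3.75. They were Ifih1, Herc6, Ifi204, Xaf1, Ddx58, Oas2, Zbp1, Oasl2, Rtp4, Rsad2, Cmpk2, Isg15, Usp18, Irf7, Mx1, Ifit1, Ifit2, Ifit3 and Ifi44. The estimate for Tap1, the highest of the 10 class I presentation genes at 1.45, lay below the lowest of these 19, Ifih1 at 1.62. The interferon genes were chosen with their response in these libraries known, so their count and their lowest estimate are descriptions. The place of the 10 genes below that estimate depends on the choice. Irf9, a called interferon factor outside this list, had a log2 fold change of 1.03.

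None of 6 MHC class II genes and none of 7 receptors and ligands around class I rose or fell by edgeR, with 4 and 2 at an unadjusted p under 0.05. DESeq2 called H2-Ab1 alone among them, higher with CYR61. The class II genes, which present peptides to CD4 T cells, had a median log2 fold change of 1.26. H2-Ab1, a class II beta chain, averaged 63.8 ± 23.1 CPM with CYR61 and 24.9 ± 13.9 CPM in control, with no overlap (log2 fold change 1.34 ± 0.37 SE, adjusted p = 0.214 by edgeR, n = 4). H2-Aa, Cd74 and H2-Eb1 had log2 fold changes of 1.63, 1.19 and 1.98 (edgeR adjusted p = 0.301, 0.352 and 0.549). The groups did not overlap for H2-Aa and overlapped for Cd74 and H2-Eb1. Among the receptors and ligands the median was 0.21, and the smallest p belonged to the T cell costimulator Cd86 (log2 fold change 1.36) and the activating class I receptor Pira2 (1.44), followed by Cd274 (0.69) and Cd80 (-0.49), with edgeR adjusted p from 0.441 to 1.0.

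**Figure D5:**
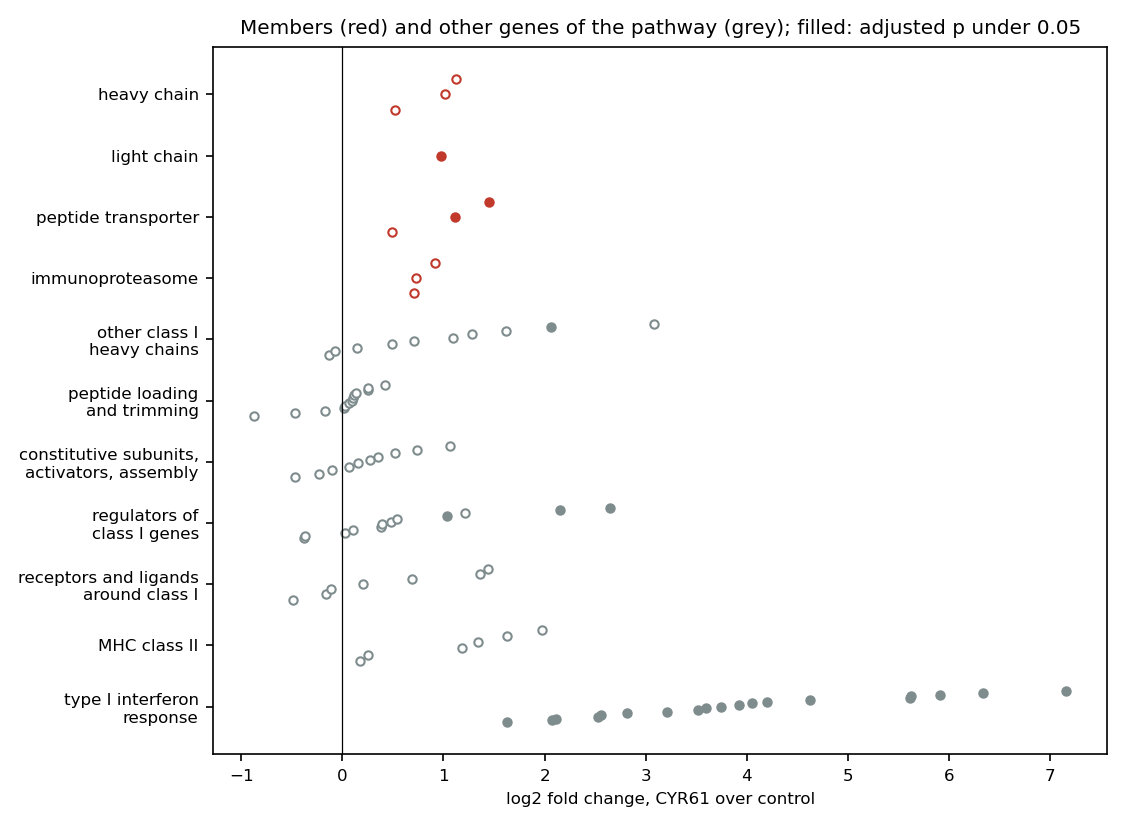
edgeR log2 fold changes of CYR61 over control for the 10 genes by role (red) and for the other genes of each list (grey), 1 point per gene, filled where the adjusted p was under 0.05. The 10 genes lay at 0.49 to 1.45, the 19 interferon genes at 1.62 to 7.16, and the genes of peptide loading and trimming at -0.87 to 0.43. The interferon genes were chosen with their response in these libraries known.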

How the data were processed

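The deposited tables hold whole-number counts of UMIs per gene and barcode, 5000 barcodes in each of 8 libraries, with 1379637 to 16318946 UMIs per library. Per the submitters' processing notes, the build was mm10. The labels gave the groups and the replicate numbers. Aligner, counter, annotation and cell calling were not given in the sources used here.

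Cells were chosen and assigned to home libraries as described above, and doublets were not called. Counts were summed per library and tested with the quasi-likelihood test of edgeR 4.0.16 (R 4.3.3), after TMM scaling and filterByExpr. CYR61 against control was the one term, and p-values were adjusted by Benjamini and Hochberg's method over all 10422 genes tested. All 8 libraries entered the fit, and all 10 genes passed the filter. The edgeR step was tested on simulated data. Alternatives included DESeq2 1.42.0, other cell rules, scalings, blocks and left-out libraries. Single-cell sums, thinning (seed 1) and ratios used Python 3.11.15 with numpy 2.4.6 and pandas 2.3.3. Y-linked genes were Ddx3y, Eif2s3y, Kdm5d and Uty.

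The 10 genes, the other lists and the tests were chosen with earlier results of these data known. All 10 genes were named. Of each other list, the called genes were named and, where fewer than 4 were called, those with the smallest p up to 4, and the partner genes Psmb5, Psmb6 and Psmb7 by purpose. H2-M3 was named for its order between the groups. Lists are described by counts and medians, without a set test. The values of 1 called regulator are not reported here. Gene positions are those of GENCODE vM21 on mm10, and promoters are those of RefSeq. Shares and counts of single libraries carry counting error that the text does not add to the spread between libraries.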

Additional observations from a re-analysis of the deposited data

Results flagged for a closer look

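Barcodes with fewer than 300 detected genes were left out of every comparison above, and they too held class I RNA. Tapbp averaged 263 ± 101 CPM in these barcodes of CYR61 libraries, at 213, 146, 329 and 364 CPM, and 106 ± 27.0 CPM in those of control libraries, at 130, 77.7, 127 and 87.3 CPM (SD, n = 4). Tapbp was listed here because every CYR61 library lay above every control in data that no comparison used. It was 1 of 10 with that order, beside 111 of 5555 genes (2%) tested in these barcodes. The other 9 genes had a higher CYR61 mean there too, with overlapping groups, where 45% of the 5555 genes had a higher CYR61 mean. B2m averaged 4241 ± 2129 CPM with CYR61 and 1589 ± 171 CPM in control. No library stood apart from the other 3 of its group in any of the 20 sets of 4 values of the 10 genes.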

How the results depend on the processing

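All 10 genes kept a positive log2 fold change in each of the 25 alternative settings that tested them, and Tap2 was not tested in cells thinned to 500 UMIs. The number of the 10 called was 3, against 0 over all kept barcodes, 0 at the earlier date alone (4 at an unadjusted p under 0.05), 5 with DESeq2, 6 without a filter on low counts, 9 with the library kind (Xist or Y) as a block and 6 in Y libraries alone. It was 0 to 4 with 1 library left out. Of all genes tested 121 were called, against 0 over all kept barcodes, 70 in cells thinned to 500 UMIs, 184 with DESeq2 (159 higher), 239 without the filter, 231 with the Xist and Y block, 371 in Xist libraries alone (132 higher and 239 lower), 196 in Y libraries alone and 74 to 127 with 1 library left out. The causes of these shifts were not tested.

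Tapbp passed in 19 of 25 settings, Tap1 in 16, B2m in 15, H2-K1 in 8, Psmb8 in 4, H2-T23 in 3, and H2-D1, Psmb9 and Psmb10 in 1 each, while Tap2 passed in 0 of 24. With 1 library left out, the log2 fold change of B2m lost its call without any control library or without CYR61 library 3 or 4 (edgeR adjusted p from 0.0517 to 0.172). Tap1 lost it without any control or without CYR61 library 4 (0.0516 to 0.0949), and Tapbp without control library 2 or 3 or CYR61 library 4 (0.0617 to 0.0949). Same-numbered libraries had correlations of -0.20, 0.32, -0.09 and 0.31, and not every library correlated best with its own number. The positive values belonged to pairs of the same kind, Xist or Y, and the negative values to pairs of unlike kinds. These correlations thus cannot show whether the replicate numbers pair the libraries. With the replicate number as a block, 112 genes and 2 of the 10 were called, B2m and Tap1 (beside 1.02% of genes that rose), and Tapbp had an edgeR adjusted p of 0.0606. Counts were lowest for Tap1, Tap2, Psmb9 and H2-T23, with 16 to 26 UMIs in their lowest library. The part of depth in the calls was not tested.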
